A study of Mus musculus with 8 samples.

Results

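The genes described here are 8 regulators of the apical and basal fate of vomeronasal sensory neurons: *Tfap2e*, *Bcl11b*, *Meis2*, *Pde4a*, *Notch1*, *Dll4*, *Smad4* and *Gli3*. They were chosen by name, and all 8 were found among the 27532 genes listed in the deposited expression table. The study profiled whole vomeronasal organs of adult mice by bulk polyA RNA sequencing, with 4 animals carrying a heterozygous *Tex15* allele and 4 *Tex15* knockout animals. *Tex15* is known from male germ cells, where it takes part in silencing transposons. The controls were heterozygous, so every animal carried at least 1 mutant *Tex15* allele, and no wild-type group was used here. The heterozygous group held 1 male of 11.4 weeks (replicate 1) and 3 females, of 14.6 weeks (replicate 2) and 11.9 weeks (replicates 3 and 4). The knockout group held 1 female of 11.9 weeks (replicate 1) and 3 males, of 11.9 weeks (replicates 2 and 3) and 12.1 weeks (replicate 4). The labels describe each library as 1 mouse, so p-values measure the spread between animals. The way the knockout allele was made is not given in the sources used here.

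The vomeronasal organ detects pheromones with sensory neurons of a pair of main classes. Apical neurons use the G protein subunit *Gnai2* and basal neurons use *Gnao1*, and both descend from a common progenitor pool that keeps dividing in the adult. Notch signalling between neighbouring precursors acts at the branch point: a ligand such as Dll4 on one cell activates a receptor such as Notch1 on the next. Bcl11b and Tfap2e then act on the basal side, the former in the choice of lineage and the latter in keeping basal identity, while Meis2 is a transcription factor of apical neurons and Pde4a is a cyclic-AMP phosphodiesterase used as a marker of them. Smad4 carries BMP and TGF-beta signals into the nucleus, and Gli3 is a transcription factor of the Hedgehog pathway that is needed for vomeronasal neurogenesis. In a whole organ, fewer cells of a type and less RNA per cell cannot be told apart.

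None of the 8 regulators passed the test for a genotype difference. *Tfap2e* and *Pde4a* had lower point estimates in knockout animals, relative to the median gene, and the other 6 had estimates at or above 0. The largest was that of *Notch1*, at 0.44 ± 0.46 (log2 fold change ± SE), less than its own standard error. Levels are given in TPM, reads per transcript length scaled to a fixed total in each library, and fold changes are knockout over heterozygous on the scale of log2(TPM + 0.5), from limma with genotype and sex as terms. Fold changes and their intervals are relative to the median tested gene, whose own change was 0.19 as deposited and -0.01 after scaling. The p-values test the change before that subtraction, so as deposited they belong to values 0.19 above the printed ones. In that fit 119 of 20305 genes tested were called at an adjusted p under 0.05, which is 0.586% of them, against 0 of the 8 members (43 of the 119 were higher in knockout animals), and 0 members had an unadjusted p under 0.05.

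The targeted gene checked the labels. *Tex15* stood at 2.72, 2.29, 2.81 and 2.27 TPM in heterozygous replicates 1 to 4 and at 0.870, 1.23, 1.12 and 1.14 TPM in knockout replicates 1 to 4, so the groups did not overlap. Its change before subtraction of the median gene was -1.03 ± 0.38 as deposited (limma, adjusted p = 0.794) and -1.22 ± 0.24 after scaling (limma, adjusted p = 0.112). Single libraries also stood apart. Heterozygous replicate 1 had 66.6 TPM of *Omp*, the marker of mature chemosensory neurons, against 571 to 943 in the other 7 libraries. As deposited, *Ano1* and *Cnga4* of the same marker list were at 24.5 and 12.1 TPM there, against 18.7 to 47.1 and 11.2 to 18.3 elsewhere, whereas *Gnai2* (175 TPM), *Robo2* (4.38 TPM) and *Nrp2* (14.6 TPM) were lower only in heterozygous replicate 2. After scaling, *Gnai2* in heterozygous replicate 1 was at 230 TPM, against 172 to 251 elsewhere, and *Gnao1* at 22.7 TPM was the highest of all libraries. Heterozygous replicate 2 had 758 TPM of *Cyp2g1*, a gene of the main olfactory mucosa, against 20.1 to 84.7, and 27.3 TPM of *Cnga2*, a channel of main olfactory neurons, against 1.27 to 13.5. The 7 main olfactory neuron markers had a median fold change of -0.71 (range -1.31 to -0.03, 0 called). Of these, *Stoml3* was at 26.3 to 143 TPM in heterozygous and 13.7 to 25.7 TPM in knockout animals. These ranges do not overlap as deposited, as for 1.4% of all genes tested. The gap, between heterozygous replicate 3 and knockout replicate 1, is not kept after scaling. The part of these markers in the members' values was not tested. A group of 6 lipocalin-type genes took 20.8% and 25.1% of all TPM in heterozygous replicates 1 and 2, 16.7% in knockout replicate 2, 4.60% in knockout replicate 1 and 0.0499 to 0.635% in the other 4. A separate list of 10 sustentacular and gland markers was abundant as well. It summed to 242122, 56218, 109245 and 207728 TPM in heterozygous replicates 1 to 4. In knockout replicates 1 to 4 it summed to 237926, 200813, 128461 and 182661 TPM. Vomeronasal receptor genes of the Vmn1r and Vmn2r families, 395 in the table, summed to 963 to 2798 TPM per library, while *Trpc2*, the transduction channel, was not analysed here. *Gnai2*, *Gnao1*, *Nrp2* and *Robo2* were above 0 in all 8 libraries but are not specific to this organ. Between 17884115 and 26415661 reads per library were recovered from the steps of low values, and 97.8 to 98.3% of those values were whole within 0.05 of a read.

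For orientation on the genes themselves, 250 bases before the start are shown for *Tfap2e*, *Pde4a* and *Dll4*. The *Pde4a* window is the most upstream of its 3 RefSeq starts. There is 1 promoter each for a basal factor, an apical enzyme and a Notch ligand, and these windows lie wholly before the gene in the annotation used for lengths. Sequences are from RefSeq on GRCm38.p6, printed 5′ to 3′ on the gene's own strand, and 7 of the 8 members matched. The windows are chr4:126736270-126736519 on the minus strand, chr9:21165464-21165713 on the plus strand and chr2:119325534-119325783 on the plus strand. Capitals mark matches, on either strand, to short core motifs of factors of the pathways described here.
Tfap2e: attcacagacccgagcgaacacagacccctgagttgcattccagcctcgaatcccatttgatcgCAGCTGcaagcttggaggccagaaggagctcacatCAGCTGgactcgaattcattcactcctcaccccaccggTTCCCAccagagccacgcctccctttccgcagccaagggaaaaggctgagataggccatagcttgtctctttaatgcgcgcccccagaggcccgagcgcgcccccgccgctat
Pde4a: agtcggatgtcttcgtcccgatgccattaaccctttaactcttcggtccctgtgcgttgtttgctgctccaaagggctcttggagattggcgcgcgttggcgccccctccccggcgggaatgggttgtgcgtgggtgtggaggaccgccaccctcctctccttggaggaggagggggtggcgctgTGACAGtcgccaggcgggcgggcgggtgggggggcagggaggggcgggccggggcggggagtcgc
Dll4: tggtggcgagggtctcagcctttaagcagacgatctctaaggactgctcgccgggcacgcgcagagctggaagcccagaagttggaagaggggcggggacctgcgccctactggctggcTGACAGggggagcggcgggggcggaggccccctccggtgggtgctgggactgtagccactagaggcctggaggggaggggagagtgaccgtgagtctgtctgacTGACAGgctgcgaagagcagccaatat
*Tfap2e* held 2 matches to the E-box CAGCTG and 1 to TGGGAA, the core bound by RBPJ, which reads TTCCCA here because it lies on the other strand. *Pde4a* held 1 match and *Dll4* held 2 matches to TGACAG, the core bound by MEIS proteins. Over all 32851 RefSeq mouse promoters of this length, 13.0% held the E-box, 21.6% the RBPJ core and 15.9% the MEIS core. The AP-2 motif GCCNNNGGC (13.7% of all promoters), the GLI motif GGGTGGTC (0.703%) and the SMAD motif GTCTAGAC (0.167%) were searched as well and are not in these 3 windows. None of the 6 motifs overlapped another within them. A match describes letters, not binding.

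The basal regulators come first. *Tfap2e* (chr4:126716006-126736240, GRCm38), which encodes AP-2 epsilon, was at 11.02, 5.25, 16.8 and 14.9 TPM in heterozygous replicates 1 to 4 and at 8.42, 11.2, 10.8 and 13.0 TPM in knockout replicates 1 to 4. The heterozygous libraries hold both the lowest and the highest value, and all 4 knockout libraries lie between them. The means were 12.0 ± 5.12 and 10.9 ± 1.90 TPM (SD, n = 4 each). Set against the median gene, the difference was a log2 fold of -0.34 ± 0.42 (95% interval -1.22 to 0.53), and -0.15 ± 0.42 before that subtraction (limma, adjusted p = 0.9995). *Bcl11b* (chr12:107910403-108003602), a zinc-finger factor also known from T cells, was at 2.91, 2.03, 5.39 and 4.26 TPM in heterozygous replicates and at 3.64, 3.34, 4.22 and 6.59 TPM in knockout replicates. The groups overlapped, with the lowest value in heterozygous replicate 2 and the highest in knockout replicate 4. The means were 3.64 ± 1.48 and 4.45 ± 1.47 TPM, and the fold change was 0.09 ± 0.43 (limma, adjusted p = 0.9995). The 9 T cell markers summed to 18.8 to 49.0 TPM in the heterozygous group and to 16.9 to 47.9 TPM in the knockout group, with no marker at 0. Across the 8 libraries *Bcl11b* followed their mean log2 level as deposited (r = 0.83, rho = 0.79, exact permutation p = 0.00806 and 0.0279, adjusted over 12 relations 0.0161 and 0.0419; r = 0.59 without the 2 farthest libraries). After scaling r was 0.17 (rho = 0.43, exact permutation p = 0.716 and 0.299). Among deposited values with group means removed it was 0.90 (rho = 0.86, approximate permutation p = 0.00226 and 0.0107).

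Of the apical regulators, *Meis2* (chr2:115863064-116065839) was the better expressed. It was at 14.6, 10.2, 23.3 and 19.5 TPM in heterozygous replicates 1 to 4 and at 16.7, 18.2, 21.2 and 30.7 TPM in knockout replicates 1 to 4. Only knockout replicate 4 lay above all heterozygous libraries, and heterozygous replicates 1 and 2 lay below all knockout libraries. The means were 16.9 ± 5.72 and 21.7 ± 6.27 TPM, with a fold change of 0.12 ± 0.39 (limma, adjusted p = 0.9995). *Pde4a* (chr9:21165714-21213248) had the narrowest range as deposited, at 6.62, 6.17, 8.94 and 9.07 TPM in heterozygous replicates and at 5.90, 6.34, 8.14 and 11.7 TPM in knockout replicates. The knockout group held its lowest and its highest value. The means were 7.70 ± 1.52 and 8.02 ± 2.65 TPM, and the fold change was -0.23 ± 0.39 (limma, adjusted p = 0.9995).

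The Notch pair had the lowest levels and, with all 8 animals, the largest positive estimates. Without knockout replicate 1 the estimate of *Dll4* was 0.05, under that of *Gli3* at 0.38, while that of *Notch1* was 0.47. No female knockout is then left, so with the sex term heterozygous replicate 1, the lone heterozygous male, alone sets the heterozygous side. The receptor gene *Notch1* (chr2:26457903-26516663) was at 0.936, 0.460, 2.48 and 1.40 TPM in heterozygous replicates and at 1.70, 1.45, 2.08 and 3.61 TPM in knockout replicates. Heterozygous replicate 3 exceeded 3 of the 4 knockout libraries, so the groups overlapped. The means were 1.32 ± 0.864 and 2.21 ± 0.969 TPM. The ligand gene *Dll4* (chr2:119325784-119335962) was at 0.619, 0.452, 0.962 and 0.586 TPM in heterozygous replicates and at 1.21, 0.802, 0.831 and 1.83 TPM in knockout replicates. Here too heterozygous replicate 3 lay inside the knockout range, above knockout replicates 2 and 3. The means were 0.654 ± 0.217 and 1.17 ± 0.477 TPM, which rest on 25 to 75 recovered reads per library. The fold change of *Dll4* was 0.35 ± 0.40 (limma, 95% interval -0.50 to 1.19, adjusted p = 0.9995).

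Exons of *Notch1*, *Dll4* and *Gli3* overlap genes on the opposite strand. These are *0610009E02Rik*, at a mean of 1.54 TPM, and *Gm13568* for *Notch1*, *Gm14207* at 0.540 TPM for *Dll4*, and *Gm6556* at 0.441 TPM for *Gli3*. Whether the counting used strand is not given in the sources used here, so reads in those stretches are uncertain. Endothelial cells also use *Notch1* and *Dll4*. The 10 endothelial markers summed to 29.1 to 89.5 TPM in the heterozygous group and to 57.0 to 105 TPM in the knockout group, with no marker at 0, and had a median fold change of 0.28. The 8 markers of neuron progenitors summed to 118 to 284 and 129 to 312 TPM, with no marker at 0 and a median of 0.38. After scaling 2 of the 8, the division genes *Mki67* (0.59 ± 0.20) and *Top2a* (0.41 ± 0.14), had an unadjusted p under 0.05, as did 5.42% of all genes, with limma adjusted p of 0.687 and 0.793. No gene of either list was called. Across the 8 libraries scaled *Notch1* had an r of 0.76 with the endothelial list (rho = 0.40, exact permutation p = 0.04998 and 0.327, adjusted 0.1999 and 0.490; r = 0.44 without the 2 farthest libraries). Scaled *Dll4* had an r of 0.59 with the endothelial list (rho = 0.67, exact permutation p = 0.133 and 0.0831; r = 0.75 without the 2 farthest libraries) and of 0.51 with the progenitor list (rho = 0.57, exact permutation p = 0.191 and 0.151; r = 0.66 without them). How far these cells enter the Notch estimates between genotypes was not tested.

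*Smad4*, on chromosome 18, had the highest level of the 8. It was at 21.8, 16.6, 46.7 and 31.6 TPM in heterozygous animals and at 24.3, 27.4, 38.8 and 42.9 TPM in knockout replicates. The knockout values lie inside the heterozygous range. The means were 29.2 ± 13.2 and 33.3 ± 8.93 TPM, with a fold change of 0.03 ± 0.40 (limma, adjusted p = 0.9995). *Gli3* (chr13:15463235-15730026) was at 0.937, 0.748, 3.06 and 1.90 TPM in heterozygous animals and at 1.90, 1.47, 2.23 and 2.65 TPM in knockout replicates. Its knockout values also lie inside the heterozygous range. The means were 1.66 ± 1.06 and 2.06 ± 0.501 TPM, and the fold change was 0.29 ± 0.45 (limma, adjusted p = 0.9995). The 7 fibroblast markers summed to 1367 to 6555 TPM in the heterozygous group and to 2407 to 5597 TPM in the knockout group, with no marker at 0. The sums were 1613 and 1367 TPM in heterozygous replicates 1 and 2 but 6555 and 4652 TPM in replicates 3 and 4, so the low heterozygous values are those of the libraries that stand apart. Their median fold change was 0.86, with 4 of 7 at an unadjusted p under 0.05 as deposited (3.10% of all genes), 0 of 7 after scaling (5.42% of all genes) and 0 called in either. As deposited *Gli3* followed these markers with r = 0.80 (rho = 0.74, exact permutation p = 0.0201 and 0.0458, adjusted over 12 relations 0.0345 and 0.0550), which fell to 0.12 without the 2 farthest libraries. *Smad4* had an r of 0.69 with them (rho = 0.69, exact permutation p = 0.0637 and 0.0694), which fell to -0.018 in the same way. After scaling r was 0.61 for *Gli3* and 0.19 for *Smad4* (rho = 0.26 and 0.12, exact permutation p of r = 0.117 and 0.637), and without the 2 farthest libraries 0.88 and 0.09. The *Gli3* relation thus moved in opposite directions with and without scaling. As deposited, 0 of the 8 members had groups that did not overlap, against 1.4% of all genes tested.

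**Figure D1:**
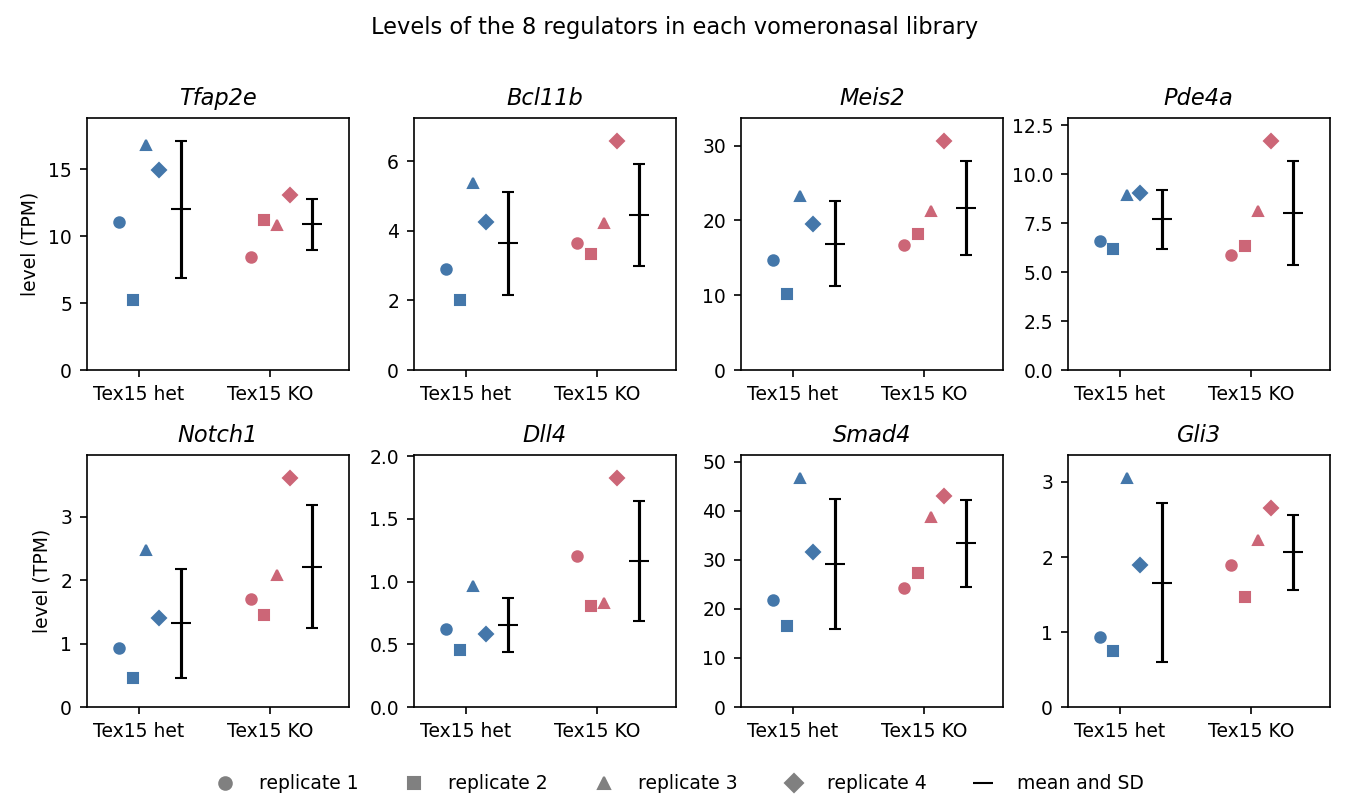
TPM (vertical axes, from 0) of each of the 8 regulators in the 4 heterozygous and 4 knockout libraries, with 1 symbol per replicate and the mean and SD of each group beside it. The groups overlap in all 8 panels; heterozygous replicate 2, the square, is the lowest point in 7 of them, and *Pde4a* is the exception.

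The order of the levels was nearly the same in every animal. By mean TPM over all 8 libraries, a scale per transcript length, *Smad4* (31.3) stood above *Meis2* (19.3), *Tfap2e* (11.4), *Pde4a* (7.86), *Bcl11b* (4.05), *Gli3* (1.86), *Notch1* (1.76) and *Dll4* (0.910). Each neighbouring pair kept this order in 8 of 8 libraries, except *Tfap2e* over *Pde4a* and *Gli3* over *Notch1*, which held in 7. The ranges of all neighbours overlapped across libraries, so the order is one within an animal. Among genes tested, the mean level put *Smad4* at the 85.3 percentile, *Meis2* at 77.0 and *Dll4* at 9.84.

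Much of the spread between animals was common to the members. The value of 7 of the 8 was lowest in heterozygous replicate 2, that of 5 was highest in knockout replicate 4, and that of 3 (*Tfap2e*, *Smad4* and *Gli3*) was highest in heterozygous replicate 3. The median-ratio factor, which is the median ratio of a library's genes to their geometric mean over libraries, ran from 0.666 in heterozygous replicate 2 and 0.767 in heterozygous replicate 1 to 1.34 in knockout replicate 4 and 1.39 in heterozygous replicate 3. TPM are shares of a total, and the share taken by the 6 lipocalin-type genes was high in the libraries with the smallest factors; its part in them was not tested. Dividing by this factor narrowed the range of every member. The highest library exceeded the lowest 2.81-fold for *Smad4* as deposited and 1.34-fold after scaling. For *Meis2* the range went from 3.02-fold to 1.503-fold, for *Bcl11b* from 3.25-fold to 1.62-fold and for *Tfap2e* from 3.21-fold to 1.82-fold. *Notch1* kept the widest range, 7.85-fold as deposited and 3.91-fold scaled. Within groups, the SD of scaled log2 levels was 0.16 for *Meis2*, 0.17 for *Bcl11b* and 0.17 for *Smad4*, against 0.26 for the median gene, whereas that of *Tfap2e* (0.31) and *Notch1* (0.33) was above it.

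**Figure D2:**
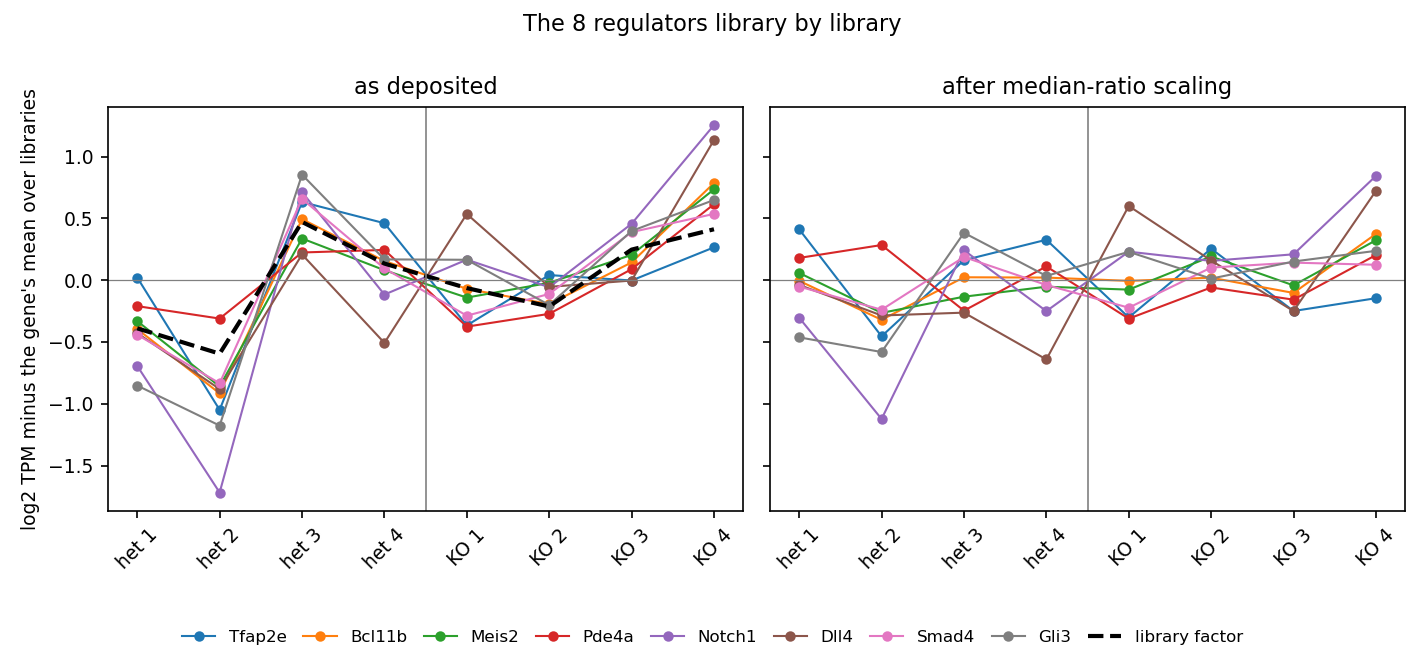
Log2 TPM of each regulator minus its mean over the 8 libraries (vertical axis), by library, as deposited (left, with the library factor dashed) and after median-ratio scaling (right). On the left all 8 lines lie below 0 in heterozygous replicate 2 and above 0 in heterozygous replicate 3 and knockout replicate 4, as the library factor does, while *Dll4* and *Notch1* have the opposite sign to it in heterozygous replicate 4 and knockout replicate 1.

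Median-ratio scaling tightened the intervals of the genotype difference without changing a call. *Smad4* had a scaled fold change of 0.00 ± 0.14 on the log2 scale, with a 95% interval from 0.794-fold to 1.26-fold. *Meis2* was at 0.09 ± 0.13 (0.868-fold to 1.31-fold) and *Bcl11b* at 0.09 ± 0.16 (0.820-fold to 1.39-fold). These 3 intervals leave out a change of 1.5 times in either direction. The intervals of the others were wider and open to larger changes in 1 direction: 0.549-fold to 1.11-fold for *Tfap2e*, 0.646-fold to 1.102-fold for *Pde4a*, 0.896-fold to 1.79-fold for *Gli3*, 0.910-fold to 1.95-fold for *Dll4* and 0.905-fold to 2.19-fold for *Notch1*. With the scaled values 155 of all genes tested were called, or 0.763% (28 of them higher in knockout animals), against 0 of 8 members, whose adjusted p (limma) ran from 0.943 to 0.995. Groups did not overlap for 3.31% of all genes and for 0 of the 8 members.

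**Figure D3:**
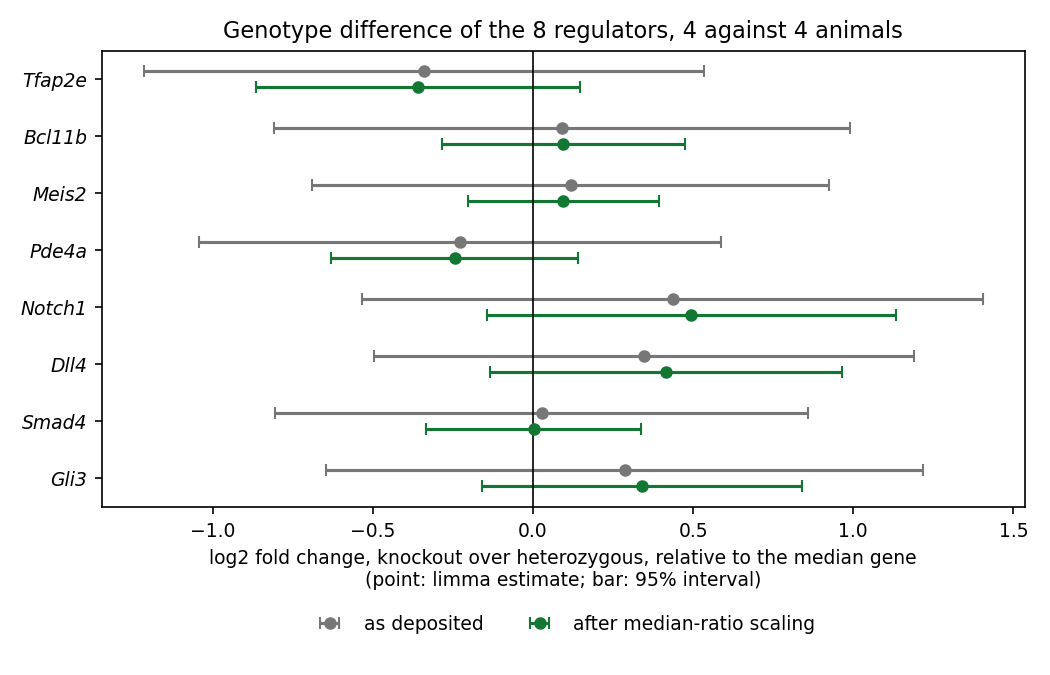
Log2 fold change of each regulator, knockout over heterozygous and relative to the median gene (horizontal axis), with its 95% interval from limma, as deposited (grey) and after median-ratio scaling (green). All 16 intervals include 0, and the scaled ones are narrower.

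Heterozygous replicates 1 and 2, which stand apart in *Omp* and *Cyp2g1*, were also left out, which keeps the 6 libraries whose title numbers are in the 7100s. No knockout title has a number outside the 7100s, and the last field of the titles also differs between these 2 animals, the 7100s and, among the latter, knockout replicate 4. What these numbers stand for is not given, and outside the 7100s they cannot be told apart from genotype. Both heterozygous animals kept are female and 3 of the 4 knockout animals are male. Without a sex term, genotype and sex are therefore largely confounded in this set. Without a sex term and as deposited, the fold change of *Tfap2e* was then -0.35 ± 0.28, that of *Dll4* 0.55 ± 0.38, that of *Notch1* 0.32 ± 0.38, that of *Meis2* 0.18 ± 0.29, that of *Bcl11b* 0.05 ± 0.33 and that of *Pde4a* -0.01 ± 0.32. *Smad4* and *Gli3* were at -0.05 ± 0.30 and -0.02 ± 0.35, below 0 where the full set had them above. The limma adjusted p of all 8 was at least 0.962 there.

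Sex was unbalanced between the genotypes, with 1 male of 4 and 3 males of 4, and so was tested in the same fit. None of the 8 members was called for sex, against 10 genes of all tested (0.0492%). The largest estimate was that of *Tfap2e*, at 0.30 ± 0.42 (log2, male over female and relative to the median gene, limma adjusted p = 0.99995). Heterozygous replicate 1 and knockout replicate 1, the lone animals of their sex, count 0.5 each in the genotype estimate, against 0.167 for every other animal.

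A regulator of 1 neuron class was next set against that class's own G protein in the same library, which cancels any factor of the library. *Tfap2e* stood at 63.5, 45.5, 54.8 and 63.0 TPM per 100 TPM of *Gnao1* in heterozygous replicates 1 to 4 and at 50.2, 61.4, 54.7 and 53.9 in knockout replicates 1 to 4. The groups overlapped, and the difference was -0.13 ± 0.16 on the log2 scale (limma, 95% interval -0.51 to 0.25, adjusted p = 0.752). *Bcl11b* stood at 16.8, 17.6, 17.6 and 17.96 per 100 TPM of *Gnao1* in heterozygous replicates and at 21.7, 18.4, 21.3 and 27.2 in knockout replicates. Here every knockout library lay above every heterozygous one, and the heterozygous mean was 17.5 ± 0.501 against 22.2 ± 3.69 (SD, n = 4). The difference of 0.30 ± 0.17 did not pass the test (limma, 95% interval -0.10 to 0.70, adjusted p = 0.476). *Meis2* per 100 TPM of *Gnai2* was 8.35, 8.94, 7.71 and 7.39 in heterozygous and 8.39, 8.39, 7.50 and 10.5 in knockout replicates, a difference of 0.06 ± 0.17 (limma, adjusted p = 0.9998). *Pde4a* per 100 TPM of *Gnai2* was 3.77, 5.43, 2.96 and 3.44 in heterozygous and 2.96, 2.93, 2.88 and 4.01 in knockout replicates, a difference of -0.28 ± 0.24 (limma, adjusted p = 0.9998). That of *Pde4a* was -0.16 without heterozygous replicate 2, and the difference of mean log2 ratios was -0.01 among the 7100s libraries against -0.27 among all 8. Both apical ratios overlapped between the groups.

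The ratio of the G proteins themselves was examined after its values had been seen. *Gnai2* per TPM of *Gnao1* was 10.1, 9.85, 9.84 and 11.1 in heterozygous replicates 1 to 4 and 11.9, 11.9, 14.3 and 12.1 in knockout replicates 1 to 4. The groups did not overlap, with a difference of the mean log2 ratios of 0.29, given as a description since the separation led to its choice. Among the 6 libraries whose title numbers are in the 7100s, which leaves out heterozygous replicates 1 and 2, the difference was 0.26. In limma with the sex term it was 0.27 ± 0.19 with an adjusted p of 0.554, which is no independent test of a ratio chosen this way. Relative to *Gnao1*, the median gene was higher by 0.21 in knockout animals and 6.98% of all genes had every knockout library above every heterozygous one. The same held for 3 of the 8 members, *Bcl11b*, *Meis2* and *Dll4*. *Meis2* per 100 TPM of *Gnao1* was 84.5, 88.1, 75.9 and 82.2 in heterozygous and 99.6, 99.8, 107 and 127 in knockout replicates, and *Dll4* was 3.57, 3.92, 3.13 and 2.47 against 7.19, 4.41, 4.19 and 7.55. With limma 0 of the 8 members were called relative to *Gnao1*, against 0.744% of all genes, and 2, *Notch1* and *Gli3*, had an unadjusted p under 0.05, against 12.3% of all genes. Relative to *Gnai2*, 0 of 8 were called, also against 0.744%, and 0 of 8 had groups that did not overlap, against 2.96%.

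*Meis2* per TPM of *Tfap2e*, an apical over a basal factor, was 1.33, 1.94, 1.38 and 1.30 in heterozygous and 1.98, 1.63, 1.96 and 2.35 in knockout replicates. The groups overlapped through heterozygous replicate 2 alone. *Meis2* per TPM of *Bcl11b* stayed between 4.32 and 5.43 in all 8 libraries.

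**Figure D4:**
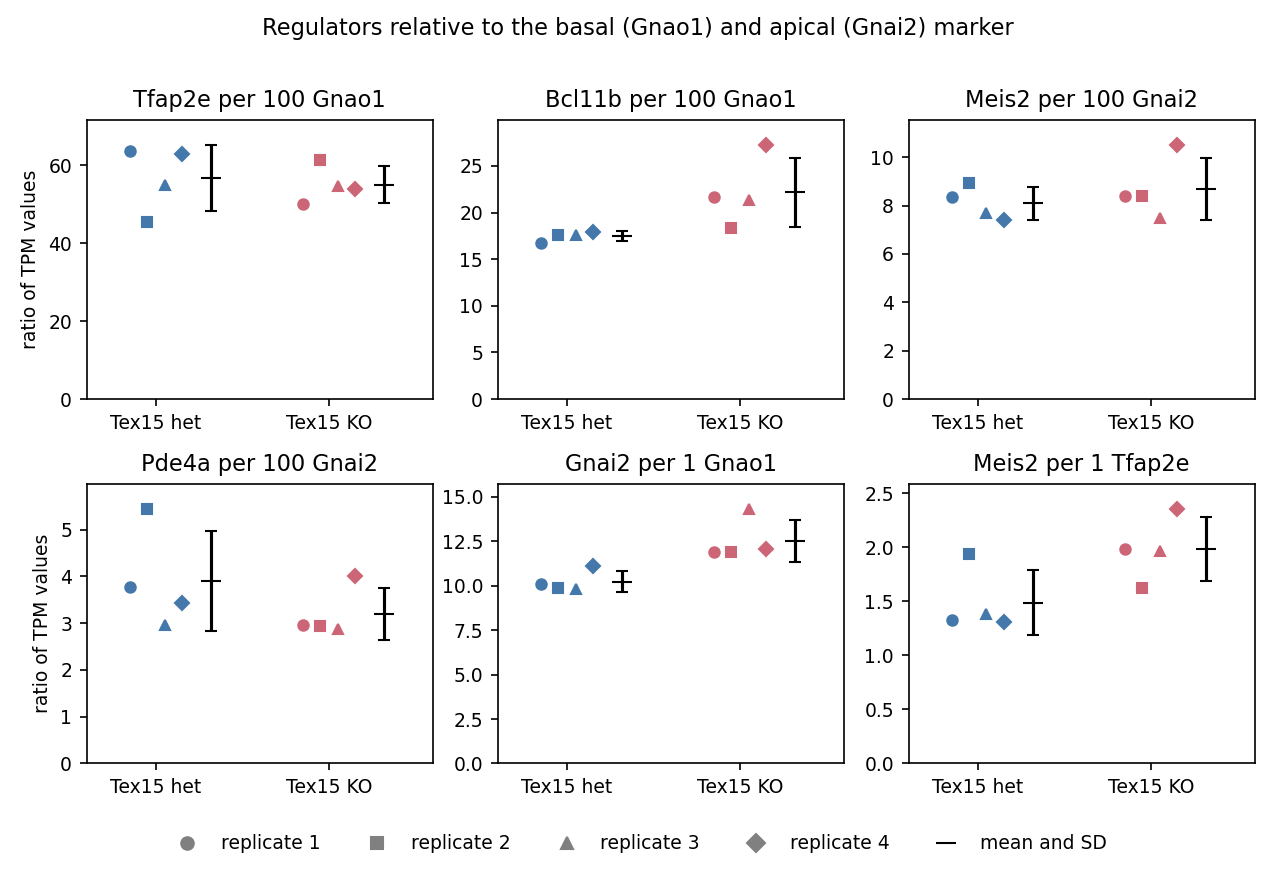
Ratios of TPM within each library (vertical axes, from 0) for 4 regulators over the G protein of their neuron class, *Gnai2* over *Gnao1* and *Meis2* over *Tfap2e*, with 1 symbol per replicate and the mean and SD beside each group. *Bcl11b* over *Gnao1* and *Gnai2* over *Gnao1* are the only panels of the 6 in which the groups do not overlap.

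Across the 8 animals, 12 relations between a member and a marker level were computed, each with an exact permutation test over pairings. As deposited, Pearson's r passed an adjusted p of 0.05 in 10 of the 12, all computed on libraries that share the factor described above. After scaling 2 passed. *Tfap2e* followed *Gnao1* with r = 0.94 (rho = 0.86, exact permutation p = 0.00620 and 0.0107, adjusted 0.0496 and 0.129), and r was 0.95 without the 2 libraries farthest from the median *Gnao1* level. *Notch1* followed the progenitor list with r = 0.85 (rho = 0.69, exact permutation p = 0.00826 and 0.0694, adjusted 0.0496 and 0.289). That relation fell to 0.44 without the 2 farthest libraries and so rests on them. *Bcl11b* had a scaled r of 0.19 with *Gnao1* (rho = 0.60, exact permutation p = 0.651 and 0.132), and *Meis2* one of 0.58 with *Gnai2* (rho = 0.64, exact permutation p = 0.131 and 0.0962), which went to 0.14 and -0.06 without the 2 farthest libraries. For *Pde4a* with *Gnai2* the scaled r was below 0, at -0.30 (rho = -0.07, exact permutation p = 0.525 and 0.882). It went to 0.46 without the 2 farthest libraries. Within groups, after removal of each group's mean from the deposited values, 9 of the 12 passed. There *Tfap2e* had an r of 0.96 with *Gnao1* (rho = 0.95, permutation p = 0.000198 and 0.00114) and *Bcl11b* 0.95 with *Gnao1* (rho = 0.93, permutation p = 0.000273 and 0.00223). With *Gnai2*, *Meis2* had an r of 0.94 (rho = 0.90, permutation p = 0.000694 and 0.00456). These values still hold the library factor. Their permutation p is approximate, since values with group means removed are not freely exchangeable between libraries.

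Closest relatives and pathway partners of the members were tested in the same fit. Of 99 fixed genes 91 were tested, 0 were called either as deposited or after scaling, and their median fold change was 0.13 against 0 for all genes. The Notch pathway had 32 tested genes beside *Notch1* and *Dll4*, with a median of 0.13 and a range of -0.32 to 0.50. Its receptors *Notch2*, *Notch3* and *Notch4* had a median of 0.33, and *Notch2* was at 8.34 ± 4.92 and 11.9 ± 3.33 TPM. The Notch targets had a median of -0.07. *Hes1*, a repressor switched on by Notch, averaged 47.7 ± 12.6 TPM in heterozygous animals and 45.2 ± 14.4 TPM in knockouts.

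The 38 genes of the BMP and TGF-beta pathway had a median of 0.11, with 0 called. *Id1*, a direct BMP target, was at 67.4 ± 8.22 and 70.1 ± 13.5 TPM. In the Hedgehog pathway 13 of 17 genes were tested, with a median of 0.18 and a range of -0.10 to 0.44. *Ptch1*, the Hedgehog receptor and a target of Gli factors, was at 3.39 ± 1.85 and 4.30 ± 1.097 TPM. Among close relatives, *Bcl11a* was at 2.701 ± 0.662 and 2.91 ± 0.991 TPM and *Meis1* at 5.19 ± 1.44 and 6.53 ± 1.80 TPM.

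The genes whose log2 levels were most like a member's over the 8 libraries were named as a description, from about 11585 with a mean of at least 5 TPM. *Tfap2e* was most like *Gm34411* (r = 0.99 as deposited and 0.93 after scaling) and *Gm15884* (0.99 and 0.97). *Notch1* was most like *Prr12* (0.99 and 0.99), *Meis2* like *Dnajc16* (0.997 and 0.913), *Bcl11b* like *Dot1l* (0.996 and 0.941) and *Smad4* like *Plekha1* (0.999 and 0.896). *Gli3* was most like *Golga5* as deposited, at 0.998, which went to -0.20 after scaling. *Pde4a* was most like *Gm20219* (0.98 and 0.74) and *Dll4* like *Ighv2-2* (0.96 and 0.94). An r above 0.95 as deposited was shared with 2039 genes for *Smad4*, 2002 for *Gli3*, 1600 for *Bcl11b*, 1045 for *Meis2* and 866 for *Notch1*, but with 56 for *Tfap2e*, 30 for *Pde4a* and 1 for *Dll4*.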

How the data were processed

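Expression was measured by bulk RNA sequencing of 8 vomeronasal organs, 4 per genotype, after polyA selection, a directional library kit and paired reads of 150 bases from RNA with a RIN above 7, per the labels' protocols. The authors deposited TPM values per gene. The submitters' processing notes name Trim Galore 0.6.5, cutadapt 5.1, STAR 2.7.11b and deepTools 3.5.5 and the mm10 (GRCm38) build. The counting tool, its annotation and use of strand, and any filter are not given in the sources used here. TPM sum to a fixed total, so a few abundant genes lower all others in a library. Reads were recovered from the steps of low TPM values times exon lengths of GENCODE M21, matched for 26729 of 27532 genes.

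The 20305 genes averaging 0.5 TPM or more entered limma (version 3.58.1, R 4.3.3) as log2(TPM + 0.5), with a variance trend, terms for genotype and sex, two-sided tests and Benjamini-Hochberg adjustment over all of them. The 8 members all passed this filter. Ratios and exact permutation tests used Python 3.11.15 and scipy 1.17.1. The fit was tested on simulated data. Alternatives were the pseudocount, the filter, median-ratio scaling, the sex term, robust variance, limma-voom on recovered reads, libraries in the 7100s a replicate block and leaving out each animal. Members, pathway lists and cell markers were chosen with earlier results of these data known. The rule for named genes was the 8 members, *Tex15*, fixed relatives, pathway genes and markers, and the most similar genes per member; 1 result for a listed gene is not reported here. Further genes and ratios named after their values were seen are *Cyp2g1*, the vomeronasal receptor sum and the lipocalin-type genes, as those that set libraries apart, and the ratios of *Gnai2* to *Gnao1*, *Meis2* to *Tfap2e*, *Bcl11b* and *Gnao1*, and *Dll4* to *Gnao1*.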

Additional observations from a re-analysis of the deposited data

Results flagged for a closer look

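Of 48 groups of 4 libraries examined, 3 had 1 library far from the others by Dixon's test at the 95% level; chance gives about 1 in 20 groups. *Pde4a* per 100 TPM of *Gnai2* was 4.01 in knockout replicate 4, against 2.88 to 2.96 in the other knockout libraries. *Gnai2* per TPM of *Gnao1* was 14.3 in knockout replicate 3, against 11.9 to 12.1 in the other knockout libraries. *Meis2* per TPM of *Tfap2e* was 1.94 in heterozygous replicate 2, against 1.30 to 1.38 in the other heterozygous libraries, and that library is the one with high *Cyp2g1*.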

How the results depend on the processing

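None of the regulators tested was called under any of 22 alternatives (with a filter at a mean of 2 TPM *Notch1*, *Dll4* and *Gli3* were not tested), and their limma adjusted p stayed between 0.767 and 1. At an unadjusted p under 0.05 the alternatives gave 1 member, *Notch1* at 0.0461, with median-ratio scaling and no sex term. Of 173 member values under the alternatives 164 kept their sign and 9 reversed, all within their standard errors. Among the 7100s libraries with the sex term, *Bcl11b* was at -0.030, *Meis2* at -0.017 and *Smad4* at -0.33. Both heterozygous animals there are female, so knockout replicate 1, the lone female knockout, alone sets the knockout side of these values. Without the sex term in these libraries *Smad4* was at -0.049 and *Gli3* at -0.019, and with scaling added at -0.034 and -0.040. Leaving out 1 animal at a time put *Smad4* between -0.19 and 0.24, at -0.19 without heterozygous replicate 1 and -0.034 without heterozygous replicate 2. Without heterozygous replicate 1 the knockout side rests on knockout replicate 1 alone. Without knockout replicate 1, which gave the 0.24, the heterozygous side rests on heterozygous replicate 1 alone. *Dll4* ranged over all alternatives from 0.05, without knockout replicate 1, to 0.76 and *Tfap2e* from -0.55 to -0.19. The values of 0.76 and -0.55 are from the 7100s libraries with the sex term.

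The count of all genes called, 119, was 72 with no filter on low values, 396 and 183 among the 7100s libraries with and without the sex term, and 86 to 257 when 1 animal was left out (204 without heterozygous replicate 2, 257 without heterozygous replicate 4, 193 without knockout replicate 4). Limma-voom on the recovered reads called 108, 12 of them higher in knockout animals. Scaling moved the share called higher in knockout animals from 43 of 119 to 28 of 155. Relations with marker levels that passed went from 10 to 2 with scaling. Replicate numbers share no stated litter or day, and same-numbered libraries had correlations of -0.06, 0.03, 0.10 and 0.00, so they do not pair the animals. A replicate block gave 128 called genes and 0 members. *Dll4* rests on the fewest reads of the 8, 25 to 75 per library. The design holds 1 male heterozygous and 1 female knockout animal, so genotype and sex are separated by few animals.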
